A study of Mus musculus with 4 samples.

Results

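Voltage-gated calcium channels open when a cell depolarises and let calcium in through a pore built from a single large alpha1 subunit, which a Cacna1 gene encodes. The subunit has 4 homologous repeats, and each repeat contributes a loop to the pore. L-type channels (Cacna1c, Cacna1d, Cacna1f) and P/Q-, N- and R-type channels (Cacna1a, Cacna1b, Cacna1e) are classed as high-voltage-activated. They need stronger depolarisation than T-type channels (Cacna1g, Cacna1h, Cacna1i), which open near rest. In the inner ear, Cacna1d encodes the channel that drives glutamate release from inner hair cells, and spiral ganglion neurons express channels of several types. Accessory beta and alpha2delta subunits bring the pore of high-voltage-activated channels to the membrane.

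The members were 9 Cacna1 genes, taken by symbol from a table of 24411 genes, and all 9 were found. Messenger RNA had been sequenced from mouse cochlear tissue at postnatal day 7, in 4 libraries. The pups had 1 or 2 knockout alleles of Otof, which encodes otoferlin, the calcium sensor of hair cell exocytosis. Heterozygous pups served as controls, so every animal carried at least 1 knockout allele and there was no wild-type group. A library pooled tissue from 2 to 3 pups, both ears of each, with 2 pools per genotype. Tissue was dissected as for the study's patch-clamp recordings. The sources used here state neither strain nor sex. The series title concerns K+ and HCN channels, and the comparison described here asked how the calcium channel pore genes differed between the genotypes.

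The libraries held between 31509350 and 38090724 estimated counts, at which 3 counts correspond to 0.0776 to 0.0944 counts per 1000000 (CPM), for counting error only. Otof had 86 and 83 counts in the heterozygous and 5 and 9 in the homozygous pools, in the order of the labels. Homozygous replicate 1 had 2 counts of the female-specific Xist and homozygous replicate 2 had 0 counts of the Y-linked Ddx3y, while both heterozygous pools held at least 1872 counts of each. Going by these genes, homozygous replicate 1 was male, homozygous replicate 2 was female and both heterozygous pools were mixed. Among homozygous pools, sex and replicate therefore cannot be told apart, also where a pool is left out. The summed level of 10 central glia markers was 524 CPM in homozygous replicate 2 and between 1541 and 1898 CPM in the other libraries. Spiral ganglion and pan-neuronal markers were abundant, with 7173 to 10214 CPM over 25 genes. Many hair cell markers were scarce: 12 of 22 had 20 or fewer counts in every library. Atoh1, a hair cell determination factor, had 0 counts throughout. Pou4f3, a hair cell transcription factor, had 7 counts in heterozygous replicate 1 and 0 in the others. The transduction channel gene Tmc1 had 4 to 14 counts. The 22 hair cell genes together summed to between 221 and 262 CPM. Most of that sum came from Myo6, at 107.5 to 158 CPM, and Myo7a, at 31.2 to 46.1 CPM.

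How the pore genes differ can be read from the pore loops of repeats 3 and 4, where high-voltage-activated and T-type channels part ways. The loop of repeat 3 is shown here. The 30 coding bases below come from the GENCODE M21 transcript with the longest coding sequence of each gene (GRCm38, coding strand). Capitals mark the codon of the selectivity filter, which sets the preference for calcium.
Cacna1c: gtctccaccttcGAAgggtggccagagctg
Cacna1d: gtctcaacttttGAGggctggcccgcgttg
Cacna1f: gtctctacctttGAAggctggcctgcgcta
Cacna1a: gtgtccacaggaGAGggctggccacaggtc
Cacna1b: gtgtccacgggaGAGgggtggcccatggtg
Cacna1e: gtctctacagggGAAggatggcctcaggtt
Cacna1g: ctggcctccaagGATggctgggttgacatc
Cacna1h: ctgtcatccaagGATggctgggtaaacatc
Cacna1i: ttggcctccaagGATggctgggtgaacatc
The 6 high-voltage-activated genes carry GAA or GAG there, both glutamate codons, and the 3 T-type genes carry GAT, an aspartate codon. Over these 30 bases the T-type genes shared 26 or 27 bases with each other. Cacna1d shared 24 bases with Cacna1f, 18 with Cacna1e and 12 with Cacna1i. The codon of Cacna1d lies at chr14:30100708-30100710 and that of Cacna1e at chr1:154444883-154444885, both on the minus strand. In repeat 4 the types differ likewise. There Cacna1g and Cacna1h carry GAC and Cacna1i carries GAT, both aspartate codons, and the high-voltage-activated genes carry GAA or GAG.

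Of the 9 genes, 8 passed the filter on low counts. By DESeq2, the tool the submitters name, Cacna1d and Cacna1e rose in the homozygous pools and 0 of 8 fell. DESeq2 called 1.03% of the 15359 genes tested as higher and 3.33% as lower. By edgeR's quasi-likelihood test, the main test here, 0 of 8 members and 0 of 15359 genes passed an adjusted p of 0.05, which is 0%. At an unadjusted edgeR p under 0.05 the higher members were again Cacna1d and Cacna1e, 2 of 8, against 4.36% of all genes, and 0 of 8 were lower, against 8.91%. The median log2 fold change was 0.13 over the 8 members and 0.0087 over all genes tested. In tissue pools, fewer cells of a type and less RNA per cell cannot be told apart. Nothing in the labels says that the pools came from separate litters, so p-values measure the spread between these pools.

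**Figure D1:**
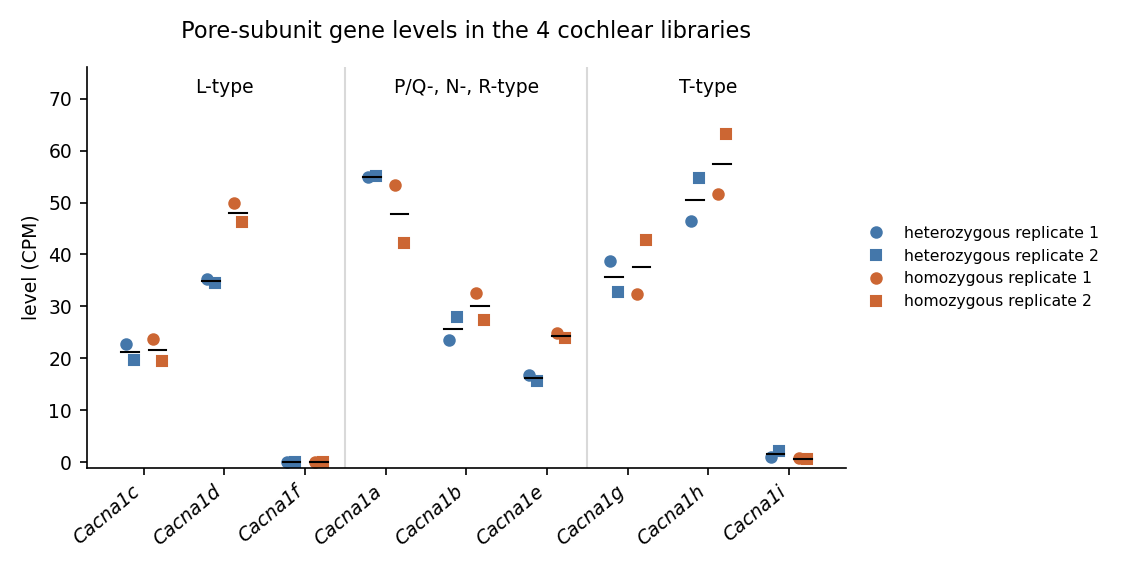
Level of each pore-subunit gene in CPM (y axis) in the 4 libraries, grouped by current type, with blue for heterozygous and orange for homozygous pools, circles for replicate 1, squares for replicate 2 and lines at the means. Both homozygous pools lie above both heterozygous pools for Cacna1d and Cacna1e, and below them for Cacna1a, Cacna1i and the barely detected Cacna1f.

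Among the L-type genes, Cacna1d (chr14:30039939-30491455, minus strand, GRCm38) was the highest. Its level was 35.3 and 34.4 CPM in heterozygous replicates 1 and 2, and 49.8 and 46.2 CPM in homozygous replicates 1 and 2. The homozygous pools lay above the heterozygous pools without overlap, as they did for 21.6% of all genes tested. The means were 34.9 ± 0.58 and 48.0 ± 2.6 CPM (SD, n = 2), and the log2 fold change was 0.46 ± 0.08 (SE, 95% interval 0.24 to 0.68). edgeR's adjusted p was 0.163 and that of DESeq2 0.0188. In DESeq2 fits without each library in turn the adjusted p was 0.288 or higher, so the call needed all 4 libraries. The fold change stayed between 0.39 and 0.53 over 14 alternative settings.

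The Cacna1d value is uncertain for a reason visible in the counts themselves. Cacna1d was the only member with sizeable fractional counts, 1254.733 and 1095.163 in the heterozygous and 1926.418 and 1482.208 in the homozygous pools. Of 1649 other genes with fractional counts, only Chdh completed these to whole numbers in all 4 libraries, within 0.0021 of a count. Chdh, the choline dehydrogenase gene (chr14:30009023-30040527), runs toward Cacna1d from the opposite strand, and their 3′ ends share 589 exonic bases, at chr14:30039939-30040527. Salmon assigns a read that fits several transcripts in fractions, and the fractions of this gene pair added up to whole reads. No source used here says whether the libraries preserved strand. Dcp1a, which overlaps Cacna1d elsewhere, had 43.7 ± 0.78 and 44.4 ± 0.36 CPM (SD, n = 2).

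Chdh moved the other way. It had 22.5 and 21.8 CPM in the heterozygous and 14.8 and 12.8 CPM in the homozygous pools, and it fell by DESeq2 (log2 fold change -0.68 ± 0.13 by edgeR, DESeq2 adjusted p = 0.00974). Of the summed counts of both genes, Cacna1d took 61.1% and 61.25% in heterozygous replicates 1 and 2, and 77.15% and 78.3% in homozygous replicates 1 and 2. The sum itself was 57.7 and 56.2 CPM in the heterozygous and 64.6 and 59.0 CPM in the homozygous pools. With the sum in place of Cacna1d, an alternative chosen after seeing the data, the log2 fold change was 0.12 ± 0.08 and was not called (adjusted p = 0.609 by edgeR and 0.900 by DESeq2, against 0.0188 or higher for Cacna1d alone over 14 settings). How many reads came from the shared bases was not tested. They make up 10.4% of the long Chdh coding transcript and between 0% and 6.76% of the Cacna1d coding transcripts.

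**Figure D2:**
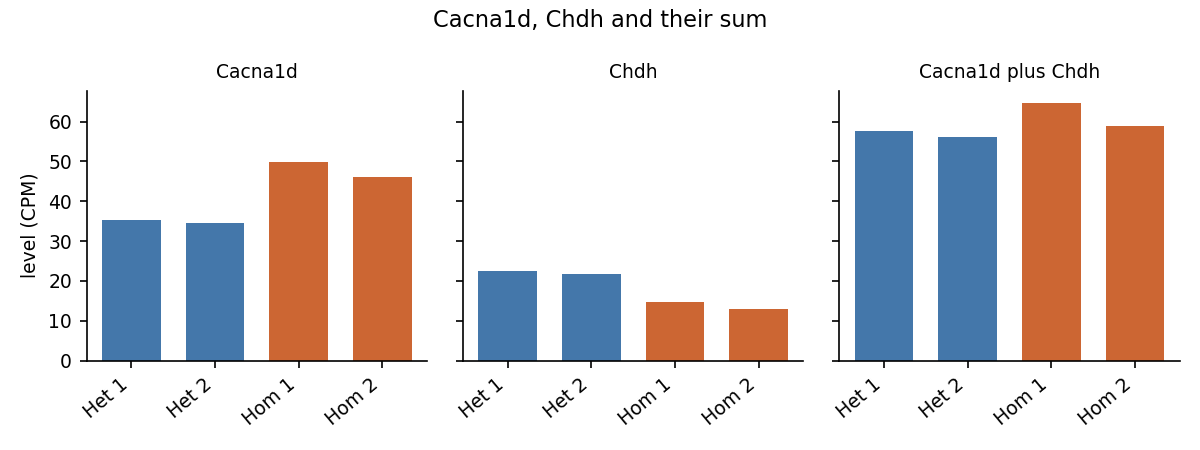
Level in CPM (bars, y axis) of Cacna1d, of the overlapping gene Chdh and of their sum in each library, blue for heterozygous and orange for homozygous pools. Cacna1d is higher and Chdh lower in the homozygous pools, and their sum runs from 56.2 to 64.6 CPM.

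Cacna1c, the L-type channel of heart and smooth muscle that neurons also use, had 22.8 and 19.7 CPM in the heterozygous and 23.7 and 19.6 CPM in the homozygous pools. The genotypes overlapped, with a log2 fold change of 0.03 ± 0.15 (95% interval -0.36 to 0.41, edgeR's adjusted p = 0.964). Its sign turned with the pool left out, so no direction can be given. Cacna1f, the L-type channel of photoreceptor ribbon synapses, had 3 and 2 counts in the heterozygous and 0 and 1 in the homozygous pools. All 4 values lay at or under 3 counts, so it was not tested and no fold change is given.

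Of the presynaptic types, Cacna1e (chr1:154390731-154884501, minus strand), the R-type channel, rose by DESeq2. It had 16.9 and 15.6 CPM in the heterozygous and 24.9 and 23.9 CPM in the homozygous pools, from 496 to 961 counts. Again both homozygous pools lay above both heterozygous pools, and the replicates were close. The means were 16.2 ± 0.89 and 24.4 ± 0.66 CPM (SD, n = 2). The log2 fold change was 0.59 ± 0.11 (95% interval 0.31 to 0.87), with an adjusted p of 0.166 by edgeR and 0.0129 by DESeq2. Without each library in turn DESeq2's adjusted p was 0.449 or higher, while the fold change stayed between 0.53 and 0.65 over 14 settings. Its counts were whole in every library, and no other GENCODE M21 gene overlaps its span.

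Cacna1a, the P/Q-type channel of nerve terminals, had 54.9 and 55.1 CPM in the heterozygous pools. The homozygous pools had 53.4 and 42.3 CPM. They lay below the heterozygous pools, as for 24.5% of all genes tested, but replicate 1 only just. The log2 fold change was -0.20 ± 0.13 (95% interval -0.54 to 0.13) and passed neither test (edgeR's adjusted p = 0.577). Without homozygous replicate 2 the log2 fold change was -0.03 and without homozygous replicate 1 it was -0.39 by edgeR. Cacna1b, the N-type channel of nerve terminals, had 23.5 and 27.9 CPM in the heterozygous and 32.7 and 27.4 CPM in the homozygous pools. These overlapped, and the log2 fold change of 0.23 ± 0.14 (95% interval -0.14 to 0.60) passed neither test.

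The T-type genes Cacna1g and Cacna1h overlapped between genotypes. Cacna1h had 46.4 and 54.7 CPM in the heterozygous and 51.6 and 63.2 CPM in the homozygous pools, a log2 fold change of 0.18 ± 0.14 (95% interval -0.18 to 0.55). Cacna1g had 38.7 and 32.7 CPM in the heterozygous and 32.4 and 42.8 CPM in the homozygous pools, a log2 fold change of 0.07 ± 0.17 (95% interval -0.37 to 0.51). Its sign also turned with the pool left out. Cacna1i was rare, with 39 and 70 counts in the heterozygous and 31 and 21 in the homozygous pools. Its homozygous values were the lower ones, 0.802 and 0.654 against 1.10 and 2.202 CPM. The log2 fold change of -1.17 ± 0.47 passed neither test (edgeR's adjusted p = 0.392), and its 95% interval ran from -2.38 to 0.04.

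**Figure D3:**
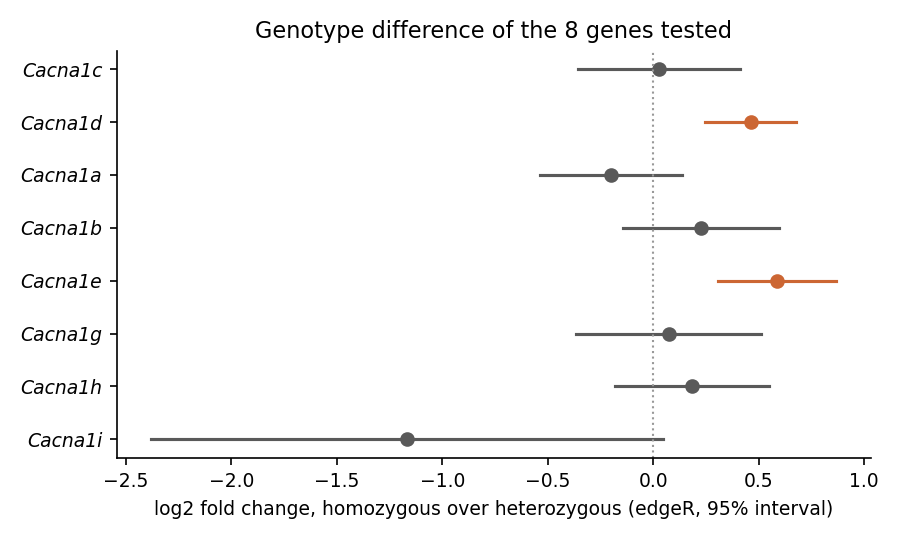
Log2 fold change of homozygous over heterozygous pools (x axis, edgeR, points with 95% intervals) for the 8 genes tested; orange marks a DESeq2 adjusted p under 0.05. The intervals of Cacna1d (0.24 to 0.68) and Cacna1e (0.31 to 0.87) lie above 0 and the other 6 include it; the Cacna1d counts are shared with Chdh.

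The start regions of the 2 genes that DESeq2 called are shown as a description. The Cacna1d call rests on counts shared with Chdh, and a link between these sequences and the levels was not tested. In RefSeq's GRCm38.p6 table, which holds 9 start windows for 6 of the members, Cacna1d has 2 windows and Cacna1e has 1, each from 250 bases before to 50 bases after a start. Capitals mark GGGCGG, the GC box, searched on both strands with overlapping matches counted.
Cacna1d, chr14:30353437-30353736, minus strand: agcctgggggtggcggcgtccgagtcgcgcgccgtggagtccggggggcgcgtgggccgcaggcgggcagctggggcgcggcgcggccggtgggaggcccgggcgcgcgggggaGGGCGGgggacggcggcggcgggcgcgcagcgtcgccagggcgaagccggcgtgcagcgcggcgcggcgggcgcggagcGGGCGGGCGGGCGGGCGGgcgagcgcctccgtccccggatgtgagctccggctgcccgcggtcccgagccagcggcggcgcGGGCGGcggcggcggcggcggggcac
Cacna1e, chr1:154725871-154726170, minus strand: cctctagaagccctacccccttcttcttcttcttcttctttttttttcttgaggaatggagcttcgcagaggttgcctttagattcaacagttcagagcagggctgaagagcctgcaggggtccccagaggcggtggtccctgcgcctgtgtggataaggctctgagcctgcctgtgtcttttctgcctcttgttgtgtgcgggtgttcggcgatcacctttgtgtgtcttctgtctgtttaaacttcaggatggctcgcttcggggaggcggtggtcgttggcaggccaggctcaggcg
The Cacna1d window was 87.3% G and C with 6 GC box matches, and its other window (chr14:30491107-30491406) was 40.3% G and C with 0. The Cacna1e window was 55.3% G and C with 0 matches. The median over 32851 windows was 52.7%, and 35.7% of them held a GC box. TGACG, the core of the cyclic AMP response element, was in none of these 3 windows and in 20.8% of all.

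Levels of different genes were compared per kilobase of transcript, with the median length of a gene's annotated coding transcripts as the main length. In heterozygous pools Cacna1a came first at 7.25 ± 0.025 CPM per kilobase, followed by Cacna1h (6.18 ± 0.72), Cacna1g (4.44 ± 0.52), Cacna1d (4.34 ± 0.072), Cacna1b (3.68 ± 0.45) and Cacna1c (2.98 ± 0.31; SD, n = 2). Neighbours in this order did not overlap between pools, except Cacna1g with Cacna1d and Cacna1c with Cacna1i. In homozygous pools the order was Cacna1h, Cacna1a, Cacna1d, Cacna1g, Cacna1b, Cacna1c, Cacna1e, Cacna1i and Cacna1f, the same with each of 3 length definitions. The heterozygous order depended on the length: with the union of exons Cacna1h came before Cacna1a, and with the longest transcript or the union Cacna1e came before Cacna1i. Among homozygous pools, by the main length, Cacna1h overlapped with Cacna1a, Cacna1a with Cacna1d, and Cacna1g with Cacna1b. Cacna1d thus stood at rank 4 in heterozygous and at rank 3 in homozygous pools, with counts that it shares with Chdh.

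The median length does not suit Cacna1i. It is 586 bases because most of its coding models are fragments, while its longest is 9781 bases. Its share of the summed per-length level was 8.35% ± 3.6 in heterozygous pools with the median and 0.626% ± 0.29 with the longest transcript (SD, n = 2). Shares with the longest transcript are therefore given beside the main ones below.

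By the main length Cacna1d held 13.6% and 12.4% of the summed per-length level in the heterozygous and 17.5% and 16.6% in the homozygous pools. With the longest transcript it held 15.2% and 14.6%, then 19.4% and 18.1%. Cacna1e went from 5.37% and 4.65% to 7.20% and 7.10%, and with the longest transcript from 4.24% and 3.86% to 5.65% and 5.45%. Both shares were higher in both homozygous pools under either length. Cacna1a held 22.4% and 21.1% in heterozygous against 19.8% and 16.1% in homozygous pools, and with the longest transcript 26.0% and 25.7% against 22.8% and 18.1%. Shares sum to a fixed total, so these values depend on each other, and 2 pools against 2 cannot give a two-sided permutation p below 0.333, so none was tested.

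By current type, the L-type genes held 22.1% ± 2.2 of the per-length sum in heterozygous and 25.7% ± 1.6 in homozygous pools (SD, n = 2), and with the longest transcript 21.0% ± 1.2 and 24.3% ± 1.7. That difference lies in Cacna1d, which shares counts with Chdh: by the main length the L-type share was 3.64 points higher in homozygous pools, Cacna1d 4.02 points higher and Cacna1c 0.31 points lower. The P/Q-, N- and R-type genes held 37.8% ± 0.58 and 37.4% ± 4.0 by the main length, and 39.7% ± 0.56 and 36.5% ± 4.7 with the longest transcript. The T-type genes held 40.2% ± 2.8 and 36.9% ± 5.6 by the main length, and 39.3% ± 0.60 and 39.2% ± 6.4 with the longest transcript. The genotype difference of the P/Q-, N- and R-type and of the T-type share was smaller than the spread between homozygous pools.

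**Figure D4:**
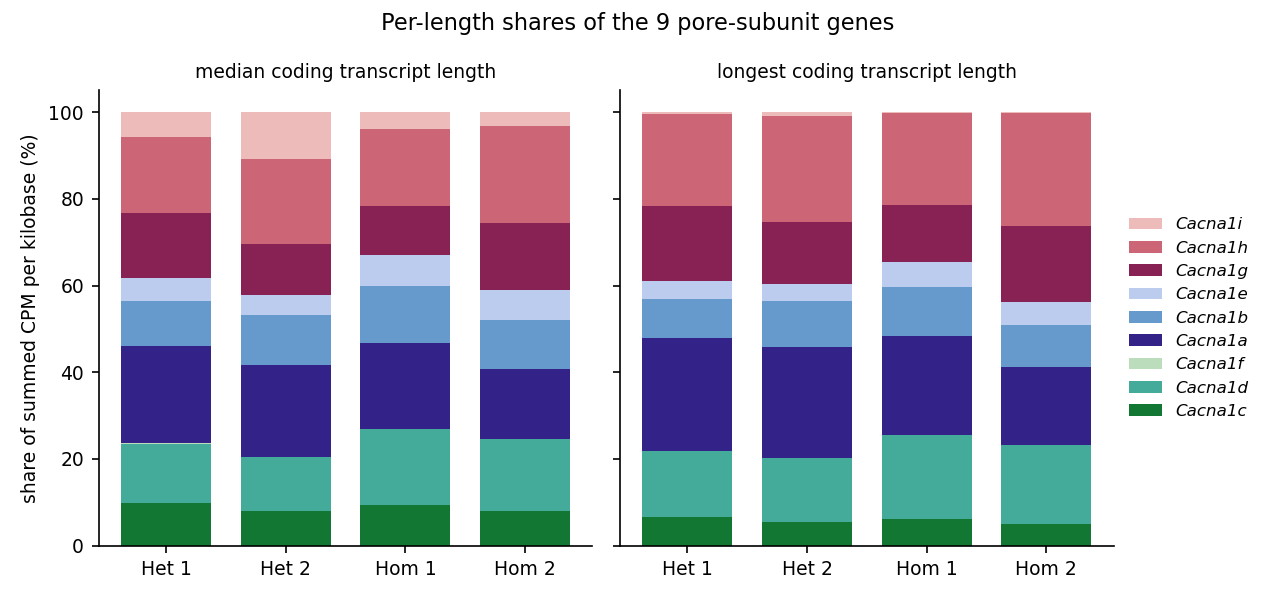
Share of each gene in the summed CPM per kilobase of the 9 genes (stacked bars, y axis in %) in the 4 libraries, with the median coding transcript length on the left and the longest on the right. Cacna1d takes 12.4% to 13.6% of the heterozygous and 16.6% to 17.5% of the homozygous bars on the left; the Cacna1i segment nearly vanishes on the right.

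The ratio of Cacna1d to Cacna1c, the other L-type gene detected, was 1.37 and 1.55 per kilobase in heterozygous replicates 1 and 2, and 1.86 and 2.09 in homozygous replicates 1 and 2. That of Cacna1e to Cacna1a was 0.240 and 0.221, then 0.363 and 0.442. These ratios restate the fold changes above, and the first rests on counts that Cacna1d shares with Chdh.

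Neuronal markers moved with genotype in the opposite direction. Of 25 spiral ganglion and pan-neuronal genes, 11 fell and 1, Gata3, rose by DESeq2, with a median log2 fold change of -0.41. Those that fell were Tubb3, Snap25, Nefl, Nefm, Rbfox3, Slc17a7, Slc17a6, Syp, Thy1, Eno2 and Ina. Their summed level was 10214 and 10131 CPM in the heterozygous and 7585 and 7173 CPM in the homozygous pools. As a percentage of that sum, Cacna1d was 0.345% and 0.340% in the heterozygous and 0.657% and 0.644% in the homozygous pools, and Cacna1e 0.165% and 0.154%, then 0.328% and 0.334%. Relative to that falling sum, 7 of the 8 members tested lay higher in both homozygous pools, as did 78.1% of all genes tested, and Cacna1i lay lower, as did 3.7%. For Cacna1i the replicate 1 pools barely differed, at 0.01073% in the heterozygous and 0.01057% in the homozygous pool, from 39 and 31 counts. Relative to the sum of hair cell markers, which is mostly Myo6 and Myo7a, Cacna1b, Cacna1d, Cacna1e and Cacna1h lay higher in both homozygous pools. So did 52.4% of all genes tested. On that scale Cacna1i lay lower, as did 10.1%, and Cacna1a, Cacna1c and Cacna1g overlapped. Both shares of higher members are thus near those of all genes. Whether the neuronal difference has a part in the member values was not tested.

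The median log2 fold changes of the Schwann and myelin, central glia, central inhibitory and skeletal muscle lists lay below that of the neuronal list. These differences were not tested. Schwann and myelin markers, 14 genes, summed to 44995 and 46688 CPM in heterozygous and to 28025 and 23215 CPM in homozygous replicates 1 and 2. Of them 9 fell by DESeq2, and the median log2 fold change was -0.81. All 10 central glia markers had negative log2 fold changes, with a median of -1.13, and 3 fell by DESeq2, namely Slc1a2, Aldh1l1 and Aldoc. They summed to 1898 and 1826 CPM in heterozygous and to 1541 and 524 CPM in homozygous replicates 1 and 2, so homozygous replicate 2 was much the lowest. Central inhibitory and cerebellar markers summed to 64.8 and 68.4 against 47.3 and 28.9 CPM. All 6 tested had negative log2 fold changes (median -1.85), and Cbln1 fell by DESeq2. Hair cell markers summed to 255 and 262 CPM in the heterozygous and 233 and 221 CPM in the homozygous pools, with Espn higher and Pcdh15 lower by DESeq2 among 11 tested. Fibroblast and mesenchyme markers, 8 genes, summed to 6859 and 5477 CPM against 8380 and 8758 CPM, and 3 rose by DESeq2. All 8 had positive log2 fold changes, with a median of 0.46. The 6 bone and cartilage markers also all had positive log2 fold changes, with a median of 0.48. They summed to 5812 and 3549 CPM in the heterozygous and 6531 and 6191 CPM in the homozygous pools. Skeletal muscle markers summed to 147 and 111 against 92.6 and 66.4 CPM, with a median log2 fold change of -0.61 and Xirp1 lower by DESeq2. By DESeq2, 2 of 10 supporting cell and 1 of 6 stria and ligament markers fell, and 0 of the markers of vessels, of bone and cartilage, and of blood cells passed. The part of all these in the member values was not tested.

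Among 176 genes of the lists that passed the filter, the profile over the 4 libraries nearest to Cacna1e was that of Dcn, the matrix proteoglycan decorin, at a Euclidean distance of 0.070 between log2 CPM values centred on each gene's own mean, followed by Postn at 0.20. Dcn was also nearest to Cacna1d (0.14), followed by Ntrk3, the neurotrophin-3 receptor (0.16). Dcn had 925 and 813 CPM in the heterozygous and 1278 and 1228 CPM in the homozygous pools. With 4 libraries such likeness is a description only.

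Accessory subunits follow, by list; differences between the lists were not tested. Of the 4 beta subunits, which traffic and gate the pore of high-voltage-activated channels, 0 passed DESeq2, and all overlapped between genotypes. Cacnb3 was the highest by count at 107 ± 19 and 110 ± 31 CPM (SD, n = 2), then Cacnb4 at 55.7 ± 7.4 and 48.3 ± 11 CPM. Cacnb1 had 32.2 ± 1.4 and 29.0 ± 3.3 CPM and Cacnb2 22.7 ± 0.12 and 22.3 ± 0.47 CPM. The median log2 fold change of the 4 genes was -0.088.

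Of the 4 alpha2delta subunits, which raise channel number at the membrane, 0 passed DESeq2. Both homozygous pools lay above both heterozygous pools for 3 of the 4, against 21.6% of all genes tested, and the median log2 fold change of the 4 was 0.28. Cacna2d1 was at 38.5 ± 3.0 CPM with 1 knockout allele and 46.2 ± 5.4 CPM with 2 (SD, n = 2). Cacna2d2 was 24.0 ± 1.6 and 30.3 ± 2.5 CPM, and Cacna2d3 38.97 ± 0.35 and 48.1 ± 3.6 CPM. Their log2 fold changes were 0.26 ± 0.12, 0.34 ± 0.11 and 0.30 ± 0.09. Cacna2d4 was rare, at 0.670 ± 0.32 and 0.640 ± 0.38 CPM.

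In the gamma family, of which most members are better known as AMPA receptor partners, Cacng5 fell by DESeq2 and the other 5 tested did not pass. Cacng5 was at 39.1 ± 1.8 CPM with 1 knockout allele and 18.6 ± 1.8 CPM with 2 (SD, n = 2). Cacng7 had 28.8 ± 0.15 and 23.6 ± 0.88 CPM, Cacng2 14.7 ± 1.3 and 13.2 ± 1.1 CPM, and Cacng4 14.2 ± 3.1 and 12.2 ± 0.055 CPM. Cacng8 had 1.94 ± 0.72 and 2.48 ± 0.59 CPM and Cacng3 0.259 ± 0.17 and 0.3504 ± 0.39 CPM. Cacng1 and Cacng6 were not tested.

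Of 29 genes for binding partners and modulators of the pore, 28 were found and 26 tested. By DESeq2, 0 rose and 3 fell. Cabp1, which binds calcium and modulates L-type channels, had 55.2 ± 2.8 and 26.6 ± 1.2 CPM (SD, n = 2). Rem2, a small GTPase that inhibits these channels, had 54 and 110 counts in heterozygous and 12 and 15 in homozygous replicates 1 and 2. Snap25, a release protein that binds presynaptic channels, was also in the neuronal list. The gene of highest level was Calm3, calmodulin, at 1246 ± 76 and 1126 ± 33 CPM, which did not pass.

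Of 13 other genes of calcium entry and release, Ryr1 fell by DESeq2 and 0 rose. Ryr1, the release channel that skeletal muscle uses, had 8.92 ± 0.47 and 2.54 ± 0.33 CPM (SD, n = 2). Itpr3, an inositol trisphosphate receptor, was the highest at 345 ± 1.5 and 321 ± 10.5 CPM and did not pass.

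**Figure D5:**
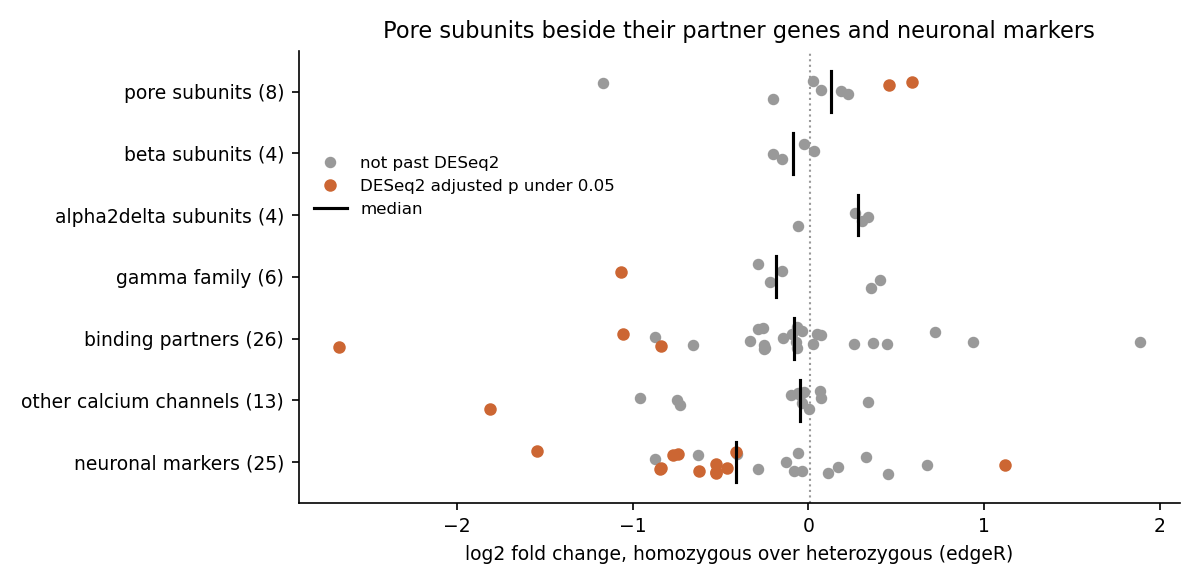
Log2 fold change of homozygous over heterozygous pools (x axis, edgeR) for each gene tested, by list, with the number tested in brackets, a black line at the list's median and orange for a DESeq2 adjusted p under 0.05. The medians are 0.13 for the pore subunits and -0.41 for the neuronal markers; the dotted line marks the median of all genes tested.

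The authors' deposited table of 343 changed genes, with adjusted p up to 0.00982 and log2 fold changes of at least 0.50 in size, listed 0 of the 9 members. In the DESeq2 fit made here the adjusted p was 0.0188 for Cacna1d and 0.0129 for Cacna1e. Both lie above the highest adjusted p of that list, so their absence from it does not contradict the calls at 0.05. The authors' deposited table did list Chdh, at a log2 fold change of -0.67 with an adjusted p of 0.00938. Of the partner genes, the authors' deposited table gave Rem2 at -2.67, Ryr1 at -1.80, Cacng5 at -1.06, Cabp1 at -1.04 and Snap25 at -0.83.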

How the data were processed

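The authors deposited a gene table of estimated counts. Per the submitters' processing notes, Salmon and mm10 were used, and per the series' design text the nf-core pipeline. No source used here states tool versions, annotation or strand setting. The authors also deposited their DESeq2 comparison, which per the file headers gives the mean normalised signal, the log2 fold change, the Wald score and the p-value of each gene. Gene symbols were the only identifiers.

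Estimated counts were rounded and fitted with edgeR 4.0.16 (quasi-likelihood F test, TMM scaling, filterByExpr, genotype as the only term, R 4.3.3), with Benjamini-Hochberg adjustment over 15359 genes. Standard errors and 95% intervals follow from the F statistic. DESeq2 1.42.0 was run on the same libraries, and "rose" and "fell" refer to its adjusted p under 0.05. CPM use TMM-scaled library sizes. Lengths and positions come from GENCODE M21 (GRCm38). Both fits were also run on simulated counts, with larger fold changes than those of Cacna1d and Cacna1e. That run does not show how the fits perform at changes as small as these. Within each genotype the 2 pools were not the same library: their chi-square was 29.6 and 48.7 times its degrees of freedom.

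The members, gene lists and the rule for named genes (all members, the accessory subunits, and called genes of the other lists) were chosen with earlier results of these data known. Alternatives were other scalings, filters, a replicate block, lengths, and leaving out each pool. A comparison of the proteins was not made here.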

Additional observations from a re-analysis of the deposited data

How the results depend on the processing

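Counts of calls depended on the test. edgeR called 0 genes with RLE or upper-quartile scaling, without a filter and with a filter of 1 CPM in 2 libraries, and DESeq2 called 670, of which 2 were members. Without each pool in turn edgeR called 0 to 60 genes and DESeq2 163 to 680 (222 without heterozygous replicate 1 and 310 without homozygous replicate 2), with 0 members in every such fit; the remaining pool is taken to vary as those of the other genotype do. With a replicate block edgeR called 495 genes and 0 members (adjusted p = 0.0509 for Cacna1d and 0.0542 for Cacna1e). The labels do not say that the numbers pair the pools, and deviations of same-numbered pools correlated at 0.359 over genes. With Cacna1d summed with Chdh, DESeq2 called 1 member. The sign turned without heterozygous replicate 2 for Cacna1c (log2 fold change -0.0759 by edgeR and -0.0793 by DESeq2) and Cacna1g (-0.0405 and -0.0441), without homozygous replicate 1 for Cacna1c (-0.13 and -0.12), and without homozygous replicate 2 for Cacna1g (-0.13 and -0.13). By edgeR the highest values with a pool left out were 0.17 for Cacna1c and 0.25 for Cacna1g. The L-type share was 18.3% in heterozygous and 21.3% in homozygous pools with the union of exons as length. The P/Q-, N- and R-type share in heterozygous pools was 39.7% with the longest transcript and 38.9% with the union, and the T-type share in homozygous pools 42.6% with the union. The cause of these shifts is the length used. Without each pool in turn the L-type share ran from 20.5% to 23.6% in heterozygous and from 24.6% to 26.8% in homozygous pools.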
